A study of Mus musculus with 54 samples.

Results

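The 74 genes named for proteins of the mitochondrial ribosome were followed in the mouse suprachiasmatic nucleus (SCN), the hypothalamic pacemaker, over the light/dark cycle. They were all rows of the count table whose symbol began with Mrpl or Mrps and a number, pseudogenes excepted, with at least 1 read in more than 6 of the 18 replicates. The pattern matched 78 of the 30031 genes in the table. The 4 rows named as pseudogenes (Mrpl23-ps1, Mrpl48-ps, Mrps36-ps1 and Mrps36-ps2) were dropped, and all of the remaining 74 passed the read minimum and the test's own filter, beside 18941 tested genes in all. By subunit, 49 belonged to the large and 24 to the small subunit, and Mrps36, which carries the name but is known as a component of the 2-oxoglutarate dehydrogenase complex, belonged to neither. Mrps30 and Mrps18a are named after the small subunit but sit in the large one.

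The mitochondrial ribosome makes the few proteins encoded by mitochondrial DNA, all of them parts of the respiratory chain and the ATP synthase. Its ribosomal RNAs come from the mitochondrial genome, whereas its proteins are encoded in the nucleus, made on cytosolic ribosomes and imported. The small subunit reads the messenger RNA and the large subunit joins the amino acids. Part of the proteins have counterparts in the bacterial ribosome (44 of the 74 genes here) and the others (29 genes) are found in the mitochondrial ribosome only.

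RNA was taken from SCN isolated by laser-capture microdissection (LCM) from C3H/HeH mice, all male and 10 to 12 weeks old, kept in 12 hr of light at 150 lux and 12 hr of darkness. There were 6 timepoints (zeitgeber time, ZT, 2, 6, 10, 14, 18 and 22, counted in hours from lights on) with 3 replicates each, named A, B and C, and each replicate pooled 5 animals. All mice were under the same conditions, so timepoints differ only in the time of collection as far as the labels say, and each mouse gave 1 timepoint. The RNA was amplified before sequencing and each replicate was read on 3 lanes, which the deposited table combines.

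Replicates held 15412981 to 35820945 counts and a single member had between 48 and 15950 counts in a replicate, and precision differs accordingly between members. Levels are given in CPM, read counts relative to the scaled total of the replicate. SCN neuron markers (Avp, Vip, Six6 and others, 8 of 8 detected) summed to between 1520 and 5222 CPM per replicate, and markers of oligodendrocytes to between 1267 and 6071, of astrocytes to between 1268 and 3923, of microglia to between 80.7 and 238 and of endothelial cells to between 74.5 and 189 CPM. Oligodendrocyte markers averaged 5249 and 5411 CPM at ZT14 and ZT18 against 1834 to 3043 at the other timepoints. In such bulk tissue, fewer cells of a type and less RNA per cell cannot be told apart. The libraries fell in 3 pairs of timepoints. Over all tested genes, the steps within a pair (ZT6 to ZT10, ZT14 to ZT18 and ZT22 to ZT2) had at most 78 genes past the threshold in either direction, whereas the steps between pairs had at least 1187. The authors describe their principal component plot as parting libraries by both timepoint and sequencing batch, and they regard batch effects as minimal. The labels name no batch, so the time of day and any handling that libraries of a pair shared cannot be told apart.

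Promoters are shown for genes with different courses over the day, as a description of the letters near their starts. Of the 74 genes, 66 had a start site in the RefSeq table (GRCm38.p6). Each line below gives the 150 bases before the start, 5′ to 3′ on the gene's strand, with matches on either strand to any of 7 motifs in capitals: the E-box of the circadian clock (CACGTG), the D-box (TTATGTAA), the cAMP response element (TGACGTCA), the GC box (GGGCGG) and the motifs of the factors known for nuclear genes of mitochondria, ETS/GABP (CCGGAAG), NRF1 (GCGCATGC) and YY1 (AAGATGGC). Mrpl43, Mrpl34 and Mrpl17 were low at ZT22 and ZT2, Mrps33 and Mrpl42 were lowest at ZT14, and Mrps11 had the largest p of the time test.
Mrpl43 (chr19:45006443-45006592, minus strand): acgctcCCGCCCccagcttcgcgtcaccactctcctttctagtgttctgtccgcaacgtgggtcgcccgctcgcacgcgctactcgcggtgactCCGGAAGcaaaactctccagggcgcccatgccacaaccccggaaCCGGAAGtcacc
Mrpl34 (chr8:71464776-71464925, plus strand): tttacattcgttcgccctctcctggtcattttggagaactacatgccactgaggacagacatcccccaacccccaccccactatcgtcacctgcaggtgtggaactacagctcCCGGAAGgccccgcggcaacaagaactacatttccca
Mrpl17 (chr7:105811088-105811237, minus strand): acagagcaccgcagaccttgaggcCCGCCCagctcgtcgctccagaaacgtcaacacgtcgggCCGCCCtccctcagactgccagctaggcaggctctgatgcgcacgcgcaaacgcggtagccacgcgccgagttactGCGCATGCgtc
Mrps33 (chr6:39810937-39811086, minus strand): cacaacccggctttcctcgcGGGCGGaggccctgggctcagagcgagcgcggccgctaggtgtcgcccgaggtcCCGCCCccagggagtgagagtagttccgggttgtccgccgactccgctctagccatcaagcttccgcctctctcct
Mrpl42 (chr10:95501950-95502099, minus strand): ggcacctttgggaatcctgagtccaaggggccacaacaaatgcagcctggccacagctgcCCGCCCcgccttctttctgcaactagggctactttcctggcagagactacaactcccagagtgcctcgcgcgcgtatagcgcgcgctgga
Mrps11 (chr7:78782981-78783130, plus strand): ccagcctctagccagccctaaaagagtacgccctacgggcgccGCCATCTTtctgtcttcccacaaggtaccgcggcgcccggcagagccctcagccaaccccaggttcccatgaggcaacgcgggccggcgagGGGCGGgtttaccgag

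Mrpl43 held 2 ETS/GABP matches and Mrpl34 held 1, and Mrpl17 ended in an NRF1 match next to its start. Mrps11 held a YY1 match, and the printed stretches of Mrps33 and Mrpl42 held GC boxes only. The same stretch of Mrpl12, Mrpl57 and Mrps7, also low at ZT22 and ZT2, held none of the 7 motifs. In Mrpl32, Mrpl22 and Mrpl51, which were not in the low set, it held NRF1 or ETS/GABP matches. Over the full windows of 300 bases (250 before to 50 after a start), an ETS/GABP match was in 24 of the 66 genes (36.4%) against 9.93% of all 27025 genes of the table, a YY1 match in 11 (16.7% against 3.19%) and an NRF1 match in 7 (10.6% against 3.05%). The E-box was in 5 (7.58% against 8.09%), the cAMP response element in 2 (3.03% against 2.03%), the GC box in 33 (50% against 38.2%) and the D-box in 0 (against 1.11%). Split by course, an ETS/GABP match was in 9 of the 19 genes low at ZT22 and ZT2 (47.4%). It was in 14 of the 44 neither low nor high then (31.8%). For YY1 these were 3 and 8 genes (15.8% and 18.2%), and for NRF1 3 and 4 (15.8% and 9.09%). A difference between them was not tested. All of these are matches of letters only. The windows of the members averaged 59.1% GC against 53.8% for all, and the shares were not matched for this. Mrpl54, Mrpl4, Mrpl13, Mrpl15, Mrpl19, Mrpl38, Mrps28 and Mrps35 were not matched.

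Per kilobase of transcript, members spanned a 212-fold range of mean level over the 18 replicates. Mrpl41, a protein of the large subunit found only in mitochondria, was highest at 573 CPM per kb, followed by Mrps21 at 456 and Mrpl20 at 444, both with bacterial counterparts. Mrpl41 exceeded Mrps21 in 17 of 18 replicates, whereas Mrps21 exceeded Mrpl20 in only 11, so the order of these last was not separated. At the other end were Mrpl3 at 6.01, Mrps35 at 3.76 and Mrps30 at 2.70 CPM per kb. Mrpl3 exceeded Mrps35 in 17 replicates and Mrps35 exceeded Mrps30 in 16. The median member had 52.4 CPM per kb.

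To find which members depended on the time of day, each gene was tested for any difference between the 6 timepoints. Of the 74 members, 60 changed with time, in a background of 44.0% of all tested genes. They comprised 40 of 49 genes of the large subunit and 19 of 24 of the small one, or 34 of 44 with bacterial counterparts and 25 of 29 without. Between the highest and lowest timepoint means, members differed 1.16-fold to 28.3-fold in CPM, with a median of 2.10-fold. The highest mean was at ZT6 or ZT10 in 43 members, at ZT22 or ZT2 in 19, at ZT18 in 10 and at ZT14 in 2. The lowest was at ZT2 in 29, at ZT14 in 28 and at ZT6 in 8. It was at ZT22 in 7, at ZT10 in 1 and at ZT18 in 1. These distributions were not counted over all tested genes.

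**Figure D1:**
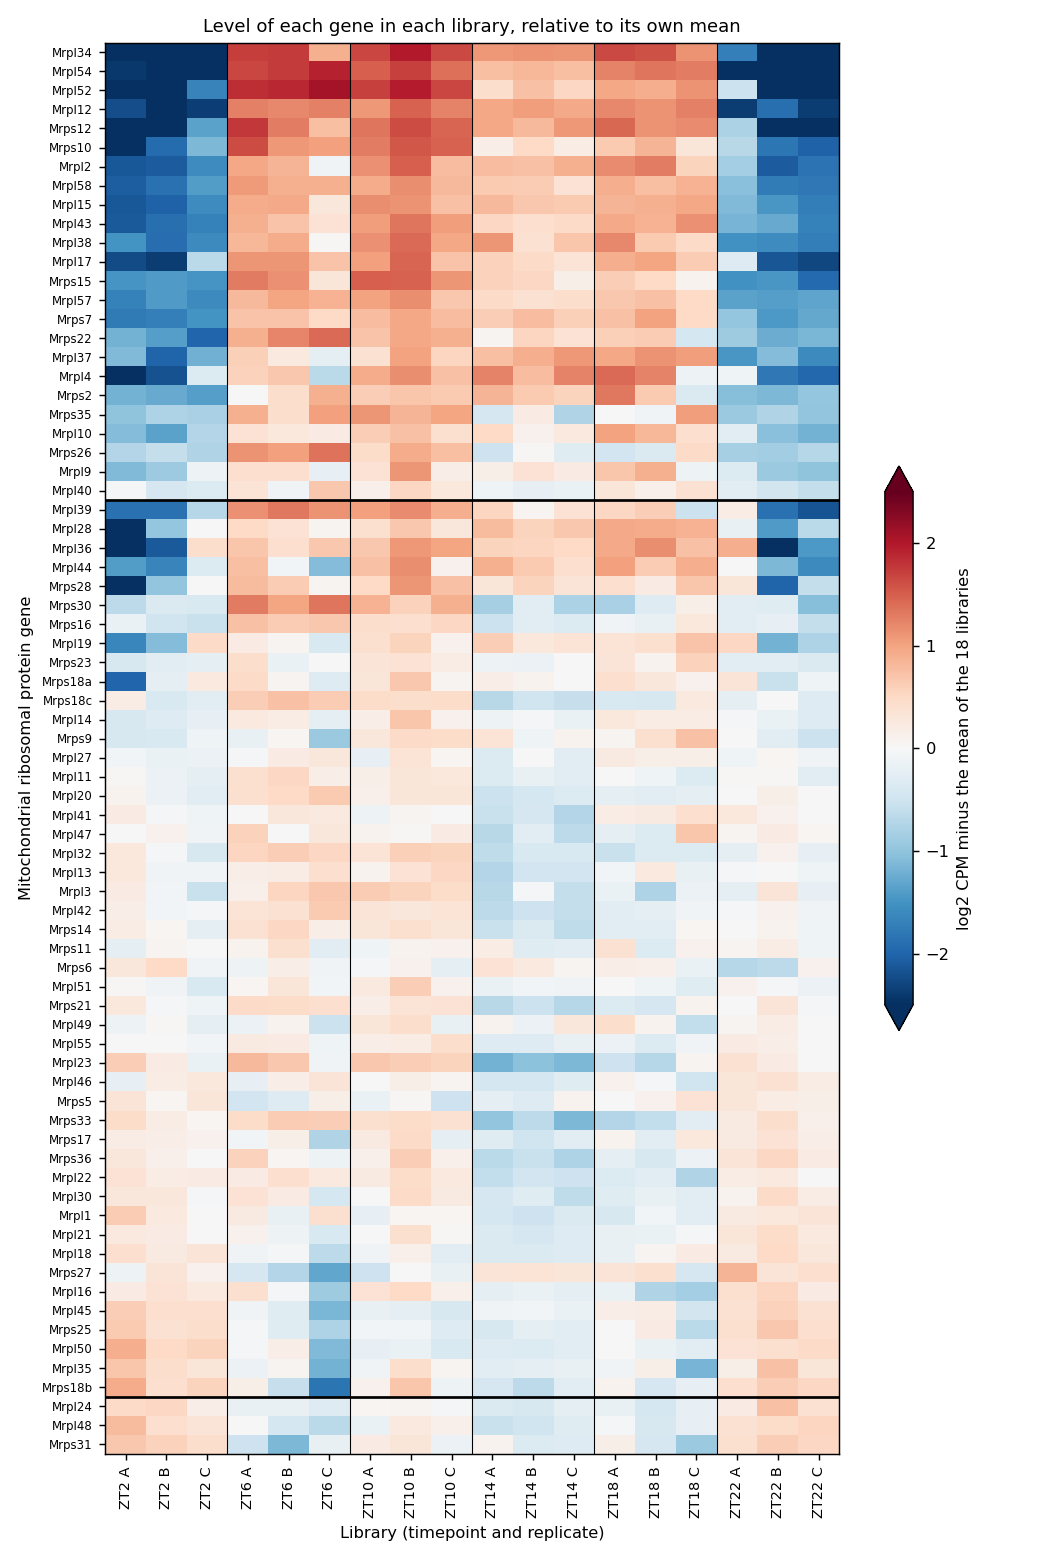
Relative level of the 74 genes (rows) in the 18 replicates (columns), as log2 CPM minus the gene's mean over all replicates. Colours saturate at the ends of the scale, and thick lines set apart the 24 genes low at ZT22 and ZT2 (top) and the 3 high at both (bottom). The top block is mostly blue at ZT2 and ZT22 and mostly red at the 4 timepoints between them.

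By number of members past the threshold, the steps on either side of lights on came first. From ZT2 to ZT6, 32 members were higher (background 17.5%) and 9 lower (background 16.3%), with a median difference of 0.46 on the log2 scale against -0.03 over all tested genes. From ZT18 to ZT22, 27 members were lower (background 11.9%) and 8 higher (background 6.27%), with a median of -0.22 against -0.04. This median was -0.08 with upper-quartile scaling and -0.15 without ZT22 replicate C. Without ZT22 replicate B, 21 were lower and 2 higher at this step.

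Of the 74 members, 24 were both higher at ZT6 than at ZT2 and lower at ZT22 than at ZT18, a pattern found in 8.53% of all tested genes. They were spread over the ribosome: 16 of 49 genes of the large and 8 of 24 of the small subunit, and 13 of 44 with and 11 of 29 without bacterial counterparts. Their median differences were 2.49 from ZT2 to ZT6 and -2.08 from ZT18 to ZT22 on the log2 scale, values that chose the set. The number was 22 with length and GC offsets, and those 22 were all among the 24. Leaving out single replicates gave 20 to 24.

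Mrpl54, a protein of the large subunit found only in mitochondria (chr10:81264713-81266934, GRCm38), had the smallest p of the time test. It measured 10.2, 7.66 and 7.59 CPM in replicates A, B and C at ZT2 and 8.91, 8.82 and 7.31 at ZT22. It measured 172, 182 and 207 CPM at ZT6 and, at ZT10, 152, 177 and 142, then 91.4, 95.9 and 91.2 at ZT14 and 129, 137 and 132 at ZT18. Every replicate at ZT22 and ZT2 thus lay far below every other replicate. The log2 difference was 4.47 ± 0.18 (SE) from ZT2 to ZT6 (adjusted p = 1.15e-11) and -3.99 ± 0.17 from ZT18 to ZT22 (adjusted p = 3.15e-10).

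Mrpl12 is the factor-binding stalk protein of the large subunit and is also known to bind the mitochondrial RNA polymerase. It averaged 12.3 ± 2.83 CPM at ZT2 and 14.8 ± 3.00 at ZT22 (SD, n = 3), against 160 ± 4.52 at ZT6, 164 ± 22.1 at ZT10, 135 ± 5.51 at ZT14 and 156 ± 6.82 at ZT18. Its level was nearly flat from ZT6 to ZT18 and the step from ZT2 to ZT6 was 3.70 ± 0.20 on the log2 scale (adjusted p = 4.48e-10).

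Mrpl34, which has a bacterial counterpart in the large subunit, had the largest ratio between timepoint means, 28.3-fold, and was picked for it. It measured 2.71, 3.53 and 5.63 CPM at ZT2 and 9.93, 3.56 and 3.51 at ZT22, against 60.8 to 130 CPM in the other 12 replicates. Replicate A at ZT22 was the highest of the 6 low ones.

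The next members by p of the time test had shallower troughs. Mrpl57, of the large subunit, averaged 22.3 ± 2.18 CPM at ZT2 and 25.7 ± 0.466 at ZT22, against 88.8 to 128 at the other timepoints. Mrpl43, of the large subunit, whose exons overlap those of the mitochondrial helicase gene Twnk on the other strand, averaged 13.3 ± 1.85 and 19.3 ± 3.57 CPM against 68.4 to 109. Mrps7, a protein of the small subunit's head, averaged 13.2 ± 1.41 and 18.0 ± 3.03 CPM against 65.2 to 74.6.

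Mrpl58 (Ict1), the peptidyl-tRNA hydrolase that is built into the large subunit and releases stalled chains, averaged 21.5 ± 5.40 CPM at ZT2 and 25.9 ± 7.98 at ZT22, against 106 to 142. It changed by 2.70 ± 0.22 from ZT2 to ZT6 and by -2.33 ± 0.22 from ZT18 to ZT22 on the log2 scale (adjusted p = 8.31e-08 and 6.53e-07). In Mrpl54, Mrpl12, Mrpl57, Mrpl43, Mrps7 and Mrpl58 no replicate at ZT22 or ZT2 reached any replicate of the other timepoints. Mrpl12, Mrps7 and Mrpl58, like 29 of the 74 members in all, also overlap an exon of another gene, and reads of genes on opposite strands could not be told apart here.

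**Figure D2:**
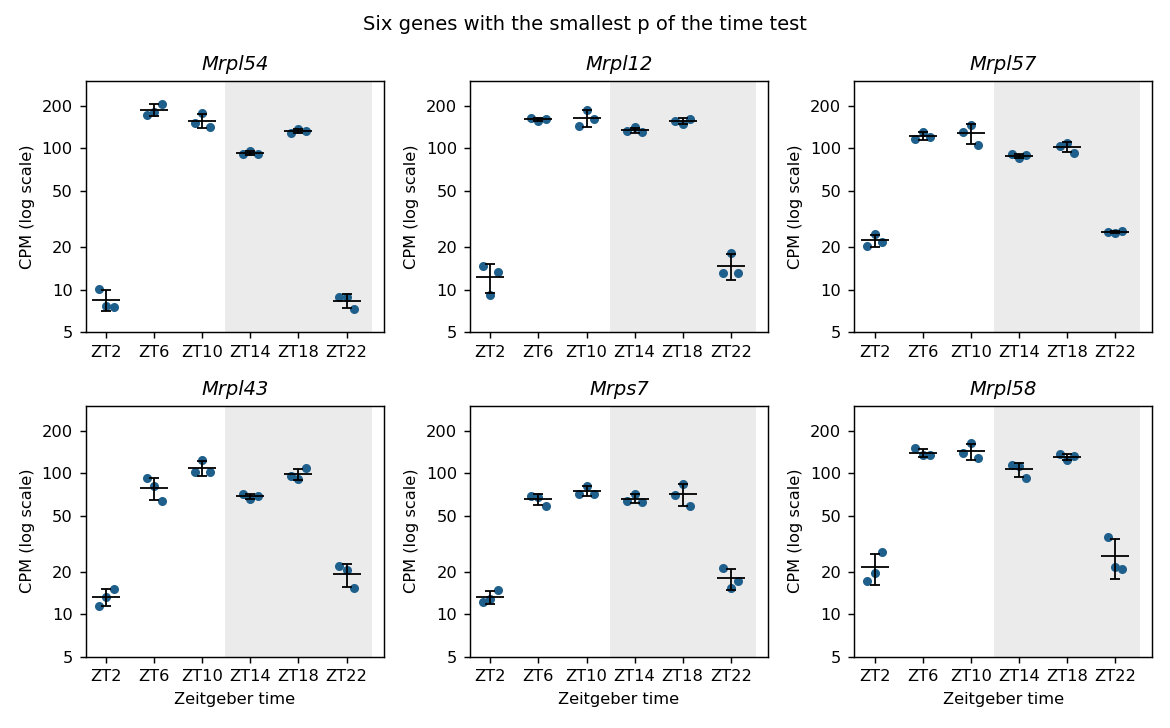
CPM on a log axis at each timepoint for the 6 members with the smallest p of the time test whose extreme timepoints did not overlap. Points are replicates, horizontal bars are means, error bars are SD (n = 3), and grey marks the dark phase. In every panel ZT2 and ZT22 sit far below the rest, for Mrpl54 at 8.48 and 8.35 CPM on average against 92.8 to 187.

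Over all 74 members, 22 had every replicate of ZT22 and ZT2 below every other replicate, against 7.93% of all tested genes, and 7 had them all above, against 4.21%. In mean CPM, 18 of the 74 were at least 4-fold lower at ZT22 and ZT2 than at the other timepoints. At least 2-fold lower were 28, and 0 were at least 2-fold higher. These fold counts were not made over all tested genes, so they have no background to be set against.

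Replicates of one timepoint differed in the depth of this trough. Mrpl36, the smallest bacterial-type protein of the large subunit, measured 3.62, 14.1 and 82.9 CPM in replicates A, B and C at ZT2 and 115, 9.26 and 22.4 at ZT22, against 82.0 to 137 elsewhere. With this spread it did not pass the time test (adjusted p = 0.305), but it did without ZT2 replicate C (0.0138) and without ZT22 replicate A (0.0327). Mrps12, the decoding-site protein of the small subunit and picked after its values were seen, showed the same 2 replicates high, with 2.88, 7.14 and 20.7 CPM at ZT2 and 30.2, 7.46 and 7.13 at ZT22, and passed the time test (adjusted p = 8.60e-05). The same replicates, ZT2 C and ZT22 A, also had more of the markers of neighbouring hypothalamic neurons (108 and 209 CPM against 24.3 to 45.8 in the other 4 replicates at ZT2 and ZT22), and ZT2 C had more oligodendrocyte markers than the other replicates at ZT2 (4409 CPM against 2136 and 2584). Tested genes with a transcript GC content of at least 55% and a mean of at least 10 CPM were also less low in these replicates. The median of their log2 CPM relative to each gene's mean was -0.36 in ZT2 C against -1.05 and -0.62 in ZT2 A and B. In ZT22 A it was -0.33, against -0.53 and -0.50 in ZT22 B and C. The part of the cell types or of this library-wide difference in the shallower trough was not tested.

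The opposite course was found in a share of members near that of all tested genes. Of the 74 members, 3 were lower at ZT6 than at ZT2 and higher at ZT22 than at ZT18 (background 3.55%): Mrpl48, Mrpl24 and Mrps31. The number was 1 without ZT22 replicate B and 1 without ZT22 replicate C, 2 without ZT18 replicate B or C, 5 without ZT6 replicate C, 5 with DESeq2 and 7 with length and GC offsets. Mrpl48 measured 125, 96.8 and 91.0 CPM at ZT2 and 94.3, 99.1 and 105 at ZT22, against 45.5 to 86.1 in the other replicates. Mrpl24 averaged 86.2 ± 11.3 and 90.1 ± 17.2 CPM against 51.8 to 66.7, and Mrps31 averaged 78.6 ± 6.36 and 76.1 ± 5.45 against 36.0 to 58.4. Both Mrpl48 and Mrpl24 overlap a gene on the other strand (Rab6a and Rrnad1).

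Members departed from their own means by more widely spread amounts at ZT22 and ZT2. The SD over the 74 genes of log2 CPM relative to each gene's mean was 0.78 to 1.34 in the replicates at ZT2 and 0.69 to 1.06 at ZT22, against 0.50 to 0.76 at the other timepoints. The same SD over the 80 cytosolic ribosomal protein genes tested was 0.45 to 0.81 at ZT22 and ZT2 and 0.39 to 0.69 elsewhere, and over the 82 respiratory chain genes it was 0.72 to 1.21 and 0.46 to 0.95. Over all tested genes with a mean of at least 10 CPM, this SD averaged 0.83 at ZT2 and 0.71 at ZT22. It averaged 0.81 at ZT6, 0.65 at ZT10, 0.56 at ZT14 and 0.69 at ZT18, and was highest in ZT6 replicate C. How far the wider spread of the members was shared by all genes was not tested. The 74 genes summed to between 5256 and 6037 CPM per replicate at ZT22 and ZT2, 5708 to 5906 at ZT14, 6951 to 7253 at ZT18 and 7242 to 9204 at ZT6 and ZT10.

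GC content moved with the trough at ZT22 and ZT2. The 24 genes low at ZT22 and ZT2 had a median GC content of 52.0% in the longest transcript, against 48.8% in the 47 genes of neither kind and 45.5% in the 3 high ones. Their transcripts had a median length of 1357 bases, against 1162 and 1515. Of the 13 members with at least 55% GC, 9 were in the low set, compared with 4 of the 20 members under 45%. Among all tested genes with a mean of at least 10 CPM the corresponding shares were 34.5% of 1851 and 6.21% of 2659. The Spearman correlation between GC content and the log2 difference of ZT22 and ZT2 from the rest was -0.36 over the 74 members and -0.36 over 9573 such genes, a description over genes that share their libraries. Of the low genes, Mrpl15 had a GC content of 40.0%, Mrpl57 42.3% and Mrpl17 43.0%. Whether base composition has a part in these differences was not tested beyond the offsets given above.

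**Figure D3:**
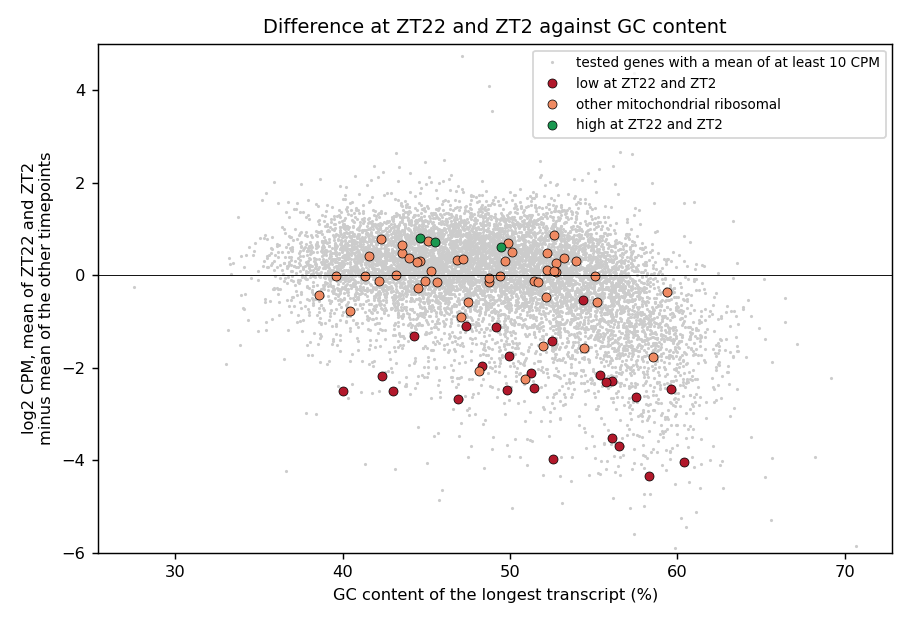
Mean log2 CPM at ZT22 and ZT2 minus the mean at the other 4 timepoints (vertical axis) against the GC content of the longest transcript in percent (horizontal axis). Grey points are the 9573 tested genes with a mean of at least 10 CPM, of which 4 lie outside the drawn range, and coloured points are the 74 members. The 24 low genes extend from 40.0% to 60.4% GC, and the 3 high genes from 44.6% to 49.4%.

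Another change fell at the light to dark transition. From ZT10 to ZT14, 26 members were lower (background 7.52%) and 0 were higher (background 9.31%), with a median log2 difference of -0.49 against 0.12 over all tested genes. With length and GC offsets the median of the members was -0.22. The ZT14 mean was below the ZT10 mean in 21 of the 24 genes low at ZT22 and ZT2, in the 3 high ones and in 41 of the other 47. These counts by direction were not made over all tested genes. Fewer passed after length and GC offsets (15 lower and 1 higher), without ZT10 replicate B (17 lower), without ZT14 replicate A (15) or without ZT14 replicate C (16).

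Mrps33, a protein of the small subunit found only in mitochondria, had the smallest p at this step. It measured 299, 313 and 295 CPM at ZT10 and 114, 144 and 104 at ZT14, a log2 difference of -1.33 ± 0.17 (adjusted p = 4.76e-05). At ZT22 and ZT2 it stood at 236 to 311 CPM, overlapping its ZT10 replicates and above every replicate of ZT14 and ZT18. From ZT18 to ZT22 it was higher by 0.80 ± 0.17 (adjusted p = 0.00233).

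Mrpl42, of the large subunit, measured 229, 220 and 230 CPM at ZT10 and 115, 128 and 120 at ZT14 (-0.91 ± 0.14, adjusted p = 0.000237). Mrps21, of the small subunit, averaged 240 ± 17.9 and 126 ± 8.40 CPM (-0.93 ± 0.16, adjusted p = 0.000861). Mrpl23, which sits by the exit of the peptide tunnel, averaged 53.1 ± 2.35 and 16.1 ± 0.905 CPM (-1.73 ± 0.26, adjusted p = 0.000254). In these genes the ZT10 and ZT14 replicates did not overlap. With length and GC offsets Mrpl42 lost its call in the time test (adjusted p = 0.375).

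Markers of cell types also moved at this step: SCN neuron markers averaged 4402 CPM at ZT10 and 1857 at ZT14, and oligodendrocyte markers 1834 and 5249. The SCN neuron markers include Prok2 and Rorb, which the authors report as cycling, so their sum does not measure cell content alone. Of the 8 SCN neuron markers, 7 passed the time test here. The part of these cell types in the fall of the members was not tested. At ZT22 and ZT2, SCN neuron markers (2635 and 3605 CPM) and oligodendrocyte markers (2643 and 3043) lay between those extremes. Astrocyte markers had their highest means at ZT22 and ZT2 (2973 and 3609 CPM against 1460 to 2661 elsewhere), as did microglia markers (207 and 215 against 92.5 to 187) and, by less, endothelial markers (123 and 140 against 82.3 to 121). Markers of neighbouring hypothalamic neurons had their lowest means there (95.9 and 53.2 CPM against 132 to 201). In all of these lists, single replicates overlapped those of other timepoints. For the neighbouring neurons ZT22 replicate A was at 209 CPM and ZT6 replicate C at 65.5, and only 2 of the 5 markers passed the time test. Means of telencephalic neuron markers were not ordered in this way (143 and 57.9 against 14.9 to 126). The part of these cells in the trough of the members was not tested.

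Within the pairs of timepoints almost nothing passed. From ZT6 to ZT10, 0 members passed in edgeR (background 0.0264% higher and 0.0211% lower), with 6 at an unadjusted p under 0.05, and 0 in DESeq2. From ZT22 to ZT2, 0 passed (background 0.0317% higher and 0.0% lower), with 4 at an unadjusted p under 0.05, and 0 in DESeq2. From ZT14 to ZT18, 1 was higher (background 0.158%) and 0 were lower (background 0.412%), with 17 at an unadjusted p under 0.05.

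That member was Mrpl41, the gene with the highest level per kilobase. It measured 296, 328 and 261 CPM at ZT14 and 495, 512 and 581 at ZT18, a log2 difference of 0.84 ± 0.15 (adjusted p = 0.0242). At ZT14 all 3 replicates lay below every other replicate of this gene, which ranged from 401 to 581 CPM. The call was lost without any one of the ZT14 replicates, without ZT18 replicate B or C, and with length and GC offsets, and DESeq2 called 3 members at this step.

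For comparison of day with night, the 3 light timepoints were set against the 3 dark ones. Of the 74 members, 19 were higher in the light (background 9.56%) and 1 was lower (background 14.3%). The median log2 difference was 0.12 against -0.13 over all tested genes.

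Mrps30, of the large subunit, had the greatest light minus dark difference, 0.99 ± 0.20 (adjusted p = 0.00149). It measured 19.1, 15.3 and 19.5 CPM at ZT6 and 14.3, 11.5 and 14.5 at ZT10, against 3.66 to 8.54 in the other 12 replicates, ZT2 included. Mrpl23 (0.88 ± 0.15), Mrps33 (0.80 ± 0.10) and Mrps26 (0.77 ± 0.14), the last of the small subunit, followed. Mrps26, like Mrps30, was low at ZT2 (16.8 ± 0.989 CPM), whereas Mrps33 and Mrpl23 were not (268 ± 39.1 and 41.1 ± 11.1 CPM).

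Mrps27, a pentatricopeptide repeat protein of the small subunit, was the member lower in the light (-0.63 ± 0.14, adjusted p = 0.00444). It measured 33.8, 27.0 and 18.2 CPM at ZT6 and 80.6, 56.4 and 60.1 at ZT22. The replicates of ZT2 (41.1 to 56.2 CPM) overlapped those of ZT18 (33.5 to 59.3 CPM).

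**Figure D4:**
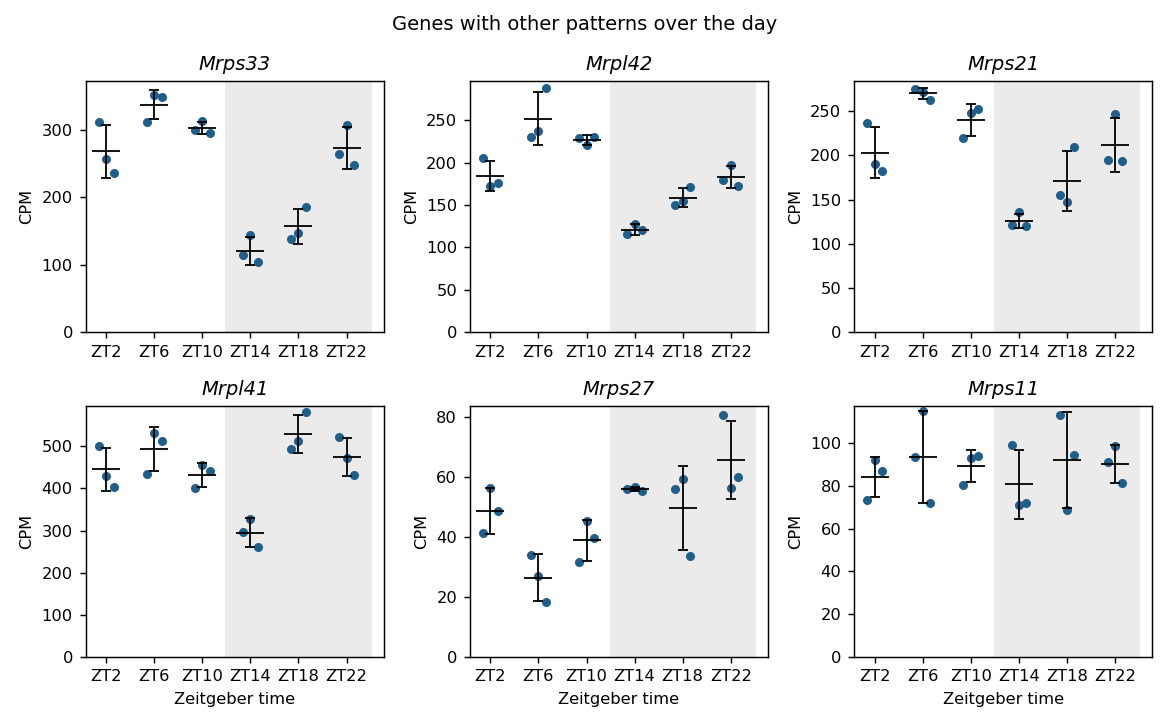
CPM from 0 on a linear axis at each timepoint for Mrps33, Mrpl42 and Mrps21 (top) and Mrpl41, Mrps27 and Mrps11 (bottom). Points are replicates, bars are means, error bars are SD (n = 3), and grey marks the dark phase. The top genes are lowest at ZT14, Mrpl41 is low at ZT14 alone, Mrps27 is lowest at ZT6, and the timepoints of Mrps11 overlap.

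Sinusoidal cycling was called where a gene passed the time test and JTK_CYCLE, a rank test for a 24 hr wave. Of the 74 members, 41 were called (background 29.9%). With JTK p-values also adjusted over genes, 19 were called. The share of all tested genes under that stricter call was not counted, so the 29.9% is no background for the 19. The peak given here is that of the best-fitting wave and need not be the timepoint with the highest mean. Peaks were at ZT10 in 14, at ZT6 in 10, at ZT14 in 9, at ZT2 in 5, at ZT22 in 2 and at ZT18 in 1, which was Mrps27. Over the 5670 tested genes called, 1384 peaked at ZT22, 1350 at ZT14 and 1277 at ZT10. A further 691 peaked at ZT6, 574 at ZT18 and 394 at ZT2. Members peaking at ZT6 included Mrps33, Mrpl42, Mrpl20, Mrps21 and Mrps18c, and those at ZT14 included Mrpl43, Mrps7 and Mrpl37. Mrpl43 and Mrps7 had their highest mean at ZT10, however, and Mrpl37 at ZT18. Mrpl12 was not called in spite of its deep trough (JTK exact p = 0.0549).

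In 14 members no test across timepoints, light and dark or steps was passed. Mrps11, of the small subunit, ranged from 68.6 to 115 CPM over the 18 replicates (adjusted p = 0.926) and Mrpl49, of the large subunit, from 49.4 to 103 (0.697). Mrps11 lies head to head with Mrpl46, another member, and their exons overlap on opposite strands. With length and GC offsets Mrps11 passed the time test (adjusted p = 0.0151).

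The 3 paralogs of the bacterial S18 protein differed in course. Mrps18c, which takes the place of S18 in the small subunit, was highest at ZT6 (215 ± 8.76 CPM) and lowest at ZT14 (89.9 ± 6.16, adjusted p of the time test = 0.00018). Mrps18b, also of the small subunit, was highest at ZT2 (36.6 ± 6.79 CPM) and lowest at ZT6 (15.9 ± 9.60, adjusted p = 0.0306). Leaving out single replicates took Mrps18b to an adjusted p of at most 0.0700, and offsets for length and GC took Mrps18c to 0.120. Mrps18a, in the large subunit, did not pass (adjusted p = 0.507), and its ZT2 replicates measured 40.6, 136 and 191 CPM. A difference between the paralogs' courses was not itself tested.

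Ribosomal proteins outside the naming pattern moved both ways. Of the 5 measured under other names, 4 changed with time (background 44.0%). Ptcd3, a pentatricopeptide repeat protein of the small subunit, averaged 66.9 ± 9.03 CPM at ZT2 and 65.4 ± 3.29 at ZT22 but 14.2 ± 5.33 at ZT6. Dap3, the GTP-binding protein of the small subunit, was lower at ZT6 (74.6 ± 15.4 CPM) than at ZT2 (124 ± 17.5). Gadd45gip1, of the large subunit, showed the reverse, with 6.07 ± 0.382 CPM at ZT2, 31.0 ± 8.80 at ZT10 and 6.52 ± 1.24 at ZT22. Chchd1 was highest at ZT6 (292 ± 22.7 CPM) and lowest at ZT14 (113 ± 13.1). Aurkaip1 did not pass (adjusted p = 0.0734).

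The ribosomal RNAs of the mitochondrion, mt-Rnr1 and mt-Rnr2, were both higher at ZT6 than at ZT2 and lower at ZT14 than at ZT10. mt-Rnr2 averaged 13061 ± 3367 CPM at ZT2, 46707 ± 13114 at ZT6, 41841 ± 2346 at ZT10 and 16505 ± 4383 at ZT14. The libraries were primed on poly(A), which mitochondrial ribosomal RNAs carry only in short form. Of the 8 mitochondrially encoded mRNAs tested, out of 13 listed, 7 changed with time (background 44.0%). At ZT6, 5 were higher than at ZT2 (background 17.5%), mt-Nd3 and mt-Nd6 among them.

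Other genes of mitochondrial translation were counted from lists, beside 44.0% of all tested genes that changed with time and 8.53% that were low at both ZT22 and ZT2. Of 12 translation factors, 10 changed with time (83.3%), and 3 were low at both ZT22 and ZT2: the elongation factor Tsfm, at 3.32 ± 2.24 and 5.97 ± 4.33 CPM against at least 41.3 elsewhere, Mtfmt, which formylates the initiator tRNA, at 3.81 ± 1.17 and 4.02 ± 0.413 against 11.6 to 22.9, and the initiation factor Mtif3, at 15.8 ± 9.59 and 17.1 ± 10.6 against 42.5 to 54.2. The elongation factor Gfm1 was higher at ZT14 (56.2 ± 9.05 CPM) than at ZT10 (25.9 ± 3.15). Of 19 aminoacyl-tRNA synthetase genes tested, 12 changed with time (63.2%) and 2 were low at both (10.5%, near the share of all genes), Aars2 and Gatc.

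Of 25 assembly factors tested, 13 changed with time (52%, near the share of all genes). From ZT2 to ZT6, 8 were lower (background 16.3%) and 6 higher (background 17.5%). Fastkd2, Dhx30 and Trmt2b, which act on mitochondrial RNA, were all lower at ZT6, Dhx30 at 69.3 ± 10.9 CPM against 195 ± 43.4 at ZT2. Of 8 genes of mitochondrial RNA synthesis and stability, 4 changed with time (50%, near the share of all genes). Slirp, an RNA-binding partner of Lrpprc, was highest at ZT6 (294 ± 43.4 CPM) and lowest at ZT14 (81.0 ± 13.9), and the RNA polymerase Polrmt was highest at ZT14 (34.5 ± 5.35 CPM) and lowest at ZT2 (6.58 ± 2.23).

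Genes of the cytosolic ribosome and the respiratory chain were set beside the members. From ZT10 to ZT14, 71 of 80 cytosolic ribosomal protein genes were lower, with a median log2 difference of -1.39, and 49 of 82 nuclear genes for subunits of the respiratory chain or the ATP synthase, with a median of -0.75, beside the 26 of 74 and -0.49 of the members. The pattern low at both ZT22 and ZT2 was found in 6 of 80 cytosolic genes (7.5%) and 16 of 82 respiratory chain genes (19.5%), beside 32.4% of the members. In the light 70 of the 80 cytosolic genes were higher and 1 lower, and 41 of the 82 respiratory chain genes were higher and 4 lower. These lists share the same libraries, and differences between them were not tested.

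**Figure D5:**
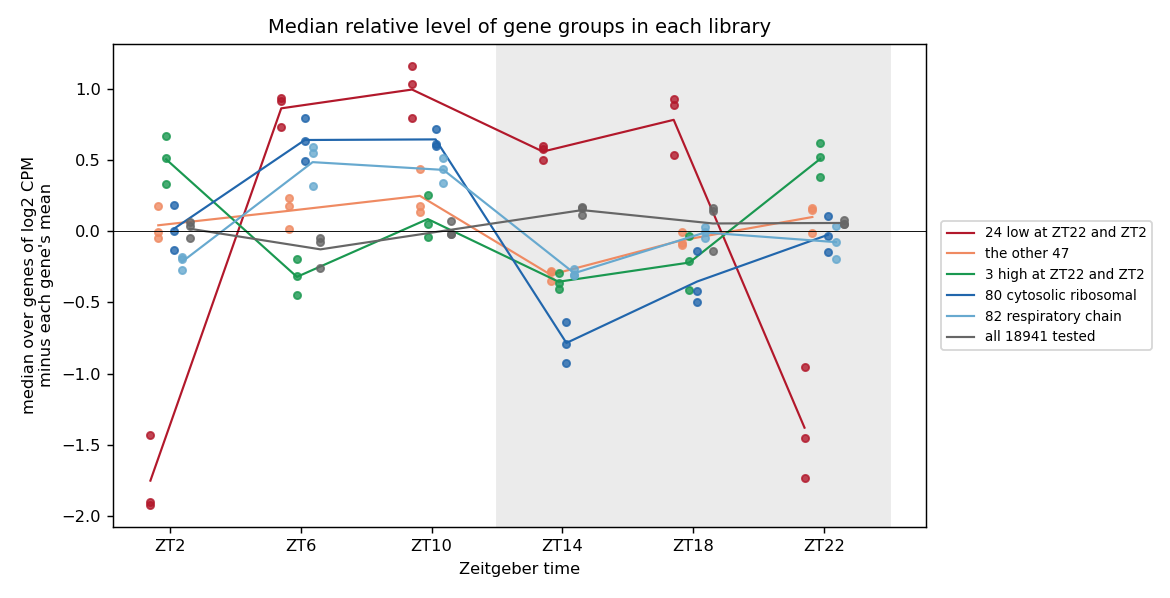
Median over genes of log2 CPM minus each gene's mean (vertical axis) in each replicate (points) at each timepoint (horizontal axis), with lines through the timepoint means for the 3 sets of members, 80 cytosolic ribosomal, 82 respiratory chain and all 18941 tested genes, and grey for the dark phase. The 24 genes low at ZT22 and ZT2, chosen by those steps, lie between -0.95 and -1.92 there and between 0.50 and 1.16 elsewhere, whereas the cytosolic ribosomal protein genes have their trough at ZT14, between -0.64 and -0.92.

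The course of single members over the replicates was compared in pairs. Over the 18 replicates, pairs of genes within the set had a median Pearson r of 0.91, pairs of one low and one high gene -0.72, and all 2701 pairs of members 0.17. With the timepoint means removed, the medians were 0.20 within the low set and 0.10 over all pairs. These correlations are descriptions, and the set was chosen on the same replicates.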

How the data were processed

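SCN tissue was laser-captured, and polyadenylated RNA was amplified (SMARTer) and sequenced. Per the submitters' processing notes and the methods, the authors aligned reads with GSNAP to mm10 (GRCm38) and counted them with HTSeq 0.5.4p1. The deposited counts are raw reads per gene, with the 3 lanes of each replicate combined (54 lane samples, 18 replicates). The authors' second table is a signal, the counts divided by 1 size factor per replicate (DESeq2). From it whole reads were recovered (100% of values whole within 0.01), which called 63 members in the time test. They equalled the count table in 94.69% to 96.32% of shared genes in the 12 replicates of ZT2, ZT14, ZT18 and ZT22 but in only 36.77% to 47.06% in the 6 replicates of ZT6 and ZT10. The tables thus differ mainly in the pair of timepoints behind the ZT2 to ZT6 and ZT10 to ZT14 steps, at which the recovered reads called 48 and 31 members, against 41 and 26 with the counts. No column of per-sample values was left unused (0).

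Counts were scaled by TMM and tested with edgeR 4.0.16 (R 4.3.3) by the quasi-likelihood test over all 18 replicates, with Benjamini-Hochberg adjustment over the 18941 genes that had a read in over 6 replicates, at a threshold of 0.05. One fit gave the time test, the 6 steps between neighbouring timepoints and light minus dark. Differences are fitted log2 values ± SE and levels are mean CPM ± SD. Steps that share a timepoint share its replicates. Cycling needed JTK_CYCLE (exact null, 6 phases, Bonferroni) on the same CPM. Alternatives used DESeq2 1.42.0, limma 3.58.1 for cosinor regression and mgcv 1.9.3 for length and GC offsets. Tested on simulated data of 18787 genes, the time test called 36% of 50 genes changed 2-fold, 94% at 4-fold, 98% at 8-fold and 0% at 1.5-fold. Of the genes it called there, 8.065% were false. The simulation changed 50 genes at each fold, at ZT6 and ZT10 only, whereas 44.0% of tested genes changed with time in the data. Its adjusted threshold was thus stricter, and these rates do not carry over directly.

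Replicates are separate pools of animals, numbered by letter. Letters did not pair the samples: same-letter deviations correlated at -0.46 to 0.19 over 45 pairs. Transcript lengths, GC content and overlaps came from GENCODE M21, and promoters from RefSeq. Totals of 15412981 to 35820945 counts set the counting precision.

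Members named were, by rule, the 6 with the smallest time-test p and separated extremes, the 4 highest and 4 lowest light minus dark differences past the threshold (mean of at least 5 CPM), up to 4 per step by p, the 4 largest time-test p (mean of at least 10 CPM), the 3 highest and 3 lowest per kb, the Mrps18 paralogs, cycling members at the rarest peak, and subunits outside the symbol pattern. Other lists had up to 3 genes named by p. Mrpl34, Mrpl17, Mrps12, Mrpl48, Mrpl24, Mrps31 and Mtif3 and the genes listed by peak or GC content were named after their values were seen. Members and lists were chosen with earlier results of these data known. Mrpl33 was not analysed here.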

Additional observations from a re-analysis of the deposited data

Results flagged for a closer look

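There were 3 more genes of the same naming pattern outside the count table used for the comparisons, with reads recovered only from the normalized table. Mrpl53, of the large subunit, had a mean of 4.72 CPM, with 19 to 249 reads per replicate, and did not pass the time test (adjusted p = 0.132 in edgeR). Mrps24, of the small subunit, had a mean of 11.8 CPM, with 129 to 628 reads, and passed it (adjusted p = 0.0067), at 20.6 ± 11.1 CPM at ZT6 against 6.46 ± 0.563 at ZT2.

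Mrps34, a small subunit protein found only in mitochondria, had a mean of 10.8 CPM and 26 to 977 reads. It measured 1.39, 1.07 and 1.82 CPM at ZT2 and 1.68, 1.15 and 0.987 at ZT22, against 47.0, 24.5 and 4.95 at ZT6 (adjusted p of the time test = 1.56e-05). The ZT6 replicates differed widely but all lay above those of ZT2 and ZT22.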

How the results depend on the processing

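Of 300 alternative values of the counts and the light minus dark median, 284 stayed close to the reported ones and 16 moved. Close meant within 1.5 times for a count and within 0.0908 for the median. The steps from ZT6 to ZT10 and from ZT22 to ZT2 were at 0 in every setting and are among the values that stayed. Settings that leave out single replicates share the rest, so the values are not independent. Members differing from ZT14 to ZT18 numbered 3 with DESeq2, 0 with length and GC offsets, 0 with the replicate block and these offsets, and 0 to 1 when single replicates were left out. From ZT10 to ZT14 they numbered 16 with length and GC offsets, 13 with the replicate block and these offsets, and 15 to 30 without single replicates. From ZT18 to ZT22 leaving out single replicates gave 23 to 39. Cycling members numbered 19 with JTK p-values adjusted over genes and 34 to 46 without single replicates. The median light minus dark difference was 0.22 with upper-quartile scaling and 0.07 to 0.19 without single replicates. The causes were not tested. The higher and lower calls from ZT18 to ZT22, 8 and 27, were 14 and 27 with DESeq2, 14 and 24 with upper-quartile scaling and 16 and 25 with offsets. Upper-quartile scaling moved the median of all genes from 0.12 to -0.02 at ZT10 to ZT14 and from -0.04 to 0.11 at ZT18 to ZT22.

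The replicate block, a term for the letters A, B and C, gave 59 members changing with time, 22 low at both ZT22 and ZT2 and 33 differing from ZT18 to ZT22, each within 1.5 times the count without it. The alternatives for the genes low at both were chosen after seeing the data and gave 20 to 27, the lowest when replicate B at ZT2, or B or C at ZT22, was left out. Of 229 alternative values for 23 named members, 218 stayed on the same side of the threshold, 8 lost the call and 3 gained it. DESeq2 gave no adjusted p for Mrpl36 in the time test. With length and GC offsets Mrpl20 was at an adjusted p of 0.092, and Mrpl3 reached 0.0631 without ZT10 replicate A. With 3 pools per timepoint small differences may be missed. The share missed cannot be read from the simulation, which changed far fewer genes than passed in the data.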
